A study of Homo sapiens with 4 samples.

Results

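The genes described here encode 5 signal transducers and activators of transcription (STAT3, STAT4, STAT5A, STAT5B and STAT6) and 4 feedback inhibitors of the same pathway (CISH, SOCS1, SOCS2 and SOCS3). They were taken by family name, as 9 of the 19970 protein-coding genes of the autosomes and X, and were followed in CUT&RUN peak lists for the transcriptional repressor BCL6. A peak was assigned to a gene when its summit lay in the gene or within 50 kb of either annotated end in RefSeq (hg38). The cells were SUDHL5, a cultured human line derived from diffuse large B-cell lymphoma. For each of 2 biological replicate numbers the labels list a library made with a BCL6 antibody and one made with control immunoglobulin (normal rabbit IgG). No genotype change, treatment or time is named for any of the 4, and all came from nuclei of the same line. In CUT&RUN an antibody tethers a micrococcal nuclease to chromatin, and the fragments it releases are sequenced. Values of the control libraries were not used here, and no region was compared with IgG. The control used in the authors' peak calling is not given. Whether their fold enrichments are already relative to IgG is therefore unknown. Occupancy does not measure expression, so the labelled cell type could not be checked against marker genes.

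Cytokine receptors activate Janus kinases (JAKs), which phosphorylate STAT proteins. STAT dimers then enter the nucleus and bind the inverted repeat TTCNNNGAA. CISH and the SOCS genes are induced by STATs and encode proteins that block receptors or JAKs, which closes a negative feedback loop. BCL6 is a zinc finger repressor that keeps B cells in the germinal centre state, and its DNA motif resembles the STAT motif. In germinal centre B cells, interleukin-21 signals largely through STAT3 and interleukin-4 through STAT6.

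The lists held 5230 peaks in replicate 1 and 3529 in replicate 2 on chromosomes 1 to 22 and X, and read totals are unknown. Peaks of both lists that overlapped by at least 1 bp formed 1311 shared regions. The authors' fold enrichment (coverage at the summit divided by that of the local background) had a median of 3.71 in replicate 1 and 3.84 in replicate 2 over these regions. The number of fragments over each summit (the pileup) was solved from the authors' fold enrichment and p-value, and its median over shared regions was 31 in replicate 1 and 26 in replicate 2.

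A shared BCL6 region lay within 50 kb of 4 of the 9 genes, namely STAT4, STAT6, CISH and SOCS1, where 10.2% of all protein-coding genes had one. The 5 STAT genes had 2 distinct shared regions, 1 each at STAT4 and STAT6. The 4 feedback inhibitors had 5, of which 2 lay at CISH and 3 at SOCS1. No shared region lay inside the body of any of the 9 genes, and a single one lay within 1 kb of one, at the start of CISH. Among all protein-coding genes 3.28% held a shared summit in the gene body and 4.47% within 1 kb. Within 10 kb the count was 3 of 9 (STAT4, STAT6 and CISH), against 5.78%, and within 100 kb it was 5 of 9, with SOCS2 added, against 15.1%. When a −log10 q of 5 or more was required in each list, the same 4 genes had a shared region within 50 kb, against 4.49%, and at 10 or more it was CISH and SOCS1 (2 of 9), against 2.39%. STAT3, STAT5A and STAT5B had peaks in their windows but none in a shared region, as 27.1% of protein-coding genes did. No peak of either list came within 50 kb of SOCS2 or SOCS3, which was so for 62.7% of protein-coding genes. Because the genes were chosen with earlier results of these data known, these shares are given as a description and were not tested.

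STAT4 mediates responses to interleukin-12 and is best known from T and natural killer cells. Its shared region, chr2:191020525-191021308, had fold enrichments of 3.81 in replicate 1 and 6.25 in replicate 2, and the summits were 6 bp apart. The pileups were 29 (95% Poisson interval 19.4 to 41.6) and 32 (21.9 to 45.2), and these intervals overlapped. The local backgrounds were 6.88 and 4.28. Read totals are unknown, so neither pileups nor backgrounds are on a common scale across the replicates. The region lay 8.87 kb beyond the 3′ end of STAT4, which is transcribed from the minus strand, and 131 kb from its annotated start (130887 bp). The summit fell inside the non-coding gene LOC124900514. In replicate 2 alone, a peak lay 15.5 kb beyond the 3′ end of STAT4, with a fold enrichment of 3.75 and a pileup of 29 (19.4 to 41.6). Another peak, also in replicate 2 alone, lay 46.5 kb before STAT4, with a fold enrichment of 2.97 and a pileup of 24 (15.4 to 35.7).

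STAT6 carries the interleukin-4 signal. Its shared region, chr12:57086571-57087729, had fold enrichments of 4.16 and 4.15 in replicates 1 and 2, with pileups of 44 (32.0 to 59.1) and 33 (22.7 to 46.3). The summits were 12 bp apart, and 11.8% of all shared regions had summits that close. This region too lay beyond the 3′ end, 8.34 kb from STAT6, inside NEMP1 and 2045 bp before the start of NAB2, which encodes a co-repressor of EGR factors. At the 5′ end of STAT6, replicate 1 alone had a peak 428 bp outside the gene. Its fold enrichment was 2.32 and its −log10 q was 2.12, and no replicate 2 summit lay within 23.2 kb of it. The other single-list peaks in the STAT6 window were at NEMP1 in replicate 1 (fold enrichment 3.63) and 526 bp before NAB2 in replicate 2 (2.64).

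STAT3, STAT5A and STAT5B lie next to each other on chromosome 17, and their windows overlap. Together they held 3 peaks, and in none did the replicates overlap. The nearest shared regions were 290 kb from STAT3, 367 kb from STAT5A and 390 kb from STAT5B. STAT3, which transmits interleukin-6, interleukin-10 and interleukin-21 signals, had a replicate 2 peak at chr17:42388874-42389644, with its summit 564 bp before the annotated start. This peak had a fold enrichment of 4.78, a pileup of 54 (40.6 to 70.5) and a −log10 q of 16.3, and the nearest replicate 1 summit was 68.3 kb away. Of the 119 replicate 2 peaks with a −log10 q at least as high, 115 were in a shared region, so the STAT3 peak was 1 of 4 that were not. The peak at STAT5B, which with STAT5A carries interleukin-2 family and growth hormone signals, was in replicate 1 only. It lay 1067 bp after the start of STAT5B, within the windows of all 3 genes, and was weak, with a fold enrichment of 2.54, a pileup of 19 (11.4 to 29.7) and a −log10 q of 1.43 where the smallest in that list was 1.31. The remaining peak, in HCRT and 14.8 kb from STAT5B, was in replicate 2 only (3.03, pileup 20).

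CISH competes with STAT5 for docking sites on activated receptors, and in mouse its gene is induced through STAT5 sites in its promoter. The shared region at its start, chr3:50611617-50612318, had the largest smaller-of-both fold enrichment among the 7 regions of these genes, 6.35 in replicate 1 and 5.60 in replicate 2. It ranked 79 of 1311 shared regions by the smaller value. The pileups were 49 (36.3 to 64.8) and 42 (30.3 to 56.8) over backgrounds of 6.88 and 6.68, and the −log10 q values were 20.4 and 15.1. The summits were 146 and 145 bp before the annotated start, 1 bp apart, where the median offset of shared regions was 91 bp and 1.75% were within 1 bp. MAPKAPK3, which encodes a kinase of the p38 pathway, is transcribed from the opposite strand with a start 103 bp before the CISH start. The summits lay inside MAPKAPK3, 43 and 42 bp after that start, so the peak cannot be assigned to either gene by position.

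The CISH promoter is shown because it alone among the promoter windows of these genes carried the inverted repeat. The sequence runs 5′ to 3′ on the CISH strand (minus strand, GRCh38.p14, chr3:50611725-50612024, from RefSeq), with 250 bases before the start and 50 from it on, and capitals mark each TTCNNNGAA:
CISH promoter: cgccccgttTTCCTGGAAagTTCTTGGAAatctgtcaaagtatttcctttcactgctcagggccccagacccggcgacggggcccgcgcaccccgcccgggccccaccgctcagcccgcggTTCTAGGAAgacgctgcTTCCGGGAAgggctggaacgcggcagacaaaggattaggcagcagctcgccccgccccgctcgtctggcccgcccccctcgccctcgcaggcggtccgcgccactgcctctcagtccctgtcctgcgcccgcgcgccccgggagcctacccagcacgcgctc
It held 4 copies. Each also matched TTCCNNGAA, a form nested in the longer pattern, on both strands at bases 10 and 139 and on the opposite strand alone at bases 21 and 122:
site at base 10: TTCCTGGAA
site at base 21: TTCTTGGAA
site at base 122: TTCTAGGAA
site at base 139: TTCCGGGAA
Bases are counted from 1 at the 5′ end of the window. The summits of replicates 1 and 2 lay 21 and 20 bp from the centre of the site at base 122, and 38 and 37 bp from that of the site at base 139. The replicate 1 peak covered all 300 bases of the window and the replicate 2 peak 263, which left out the sites at bases 10 and 21. Because TTCNNNGAA reads the same on both strands, searching either strand finds the same sites.

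**Figure D1:**
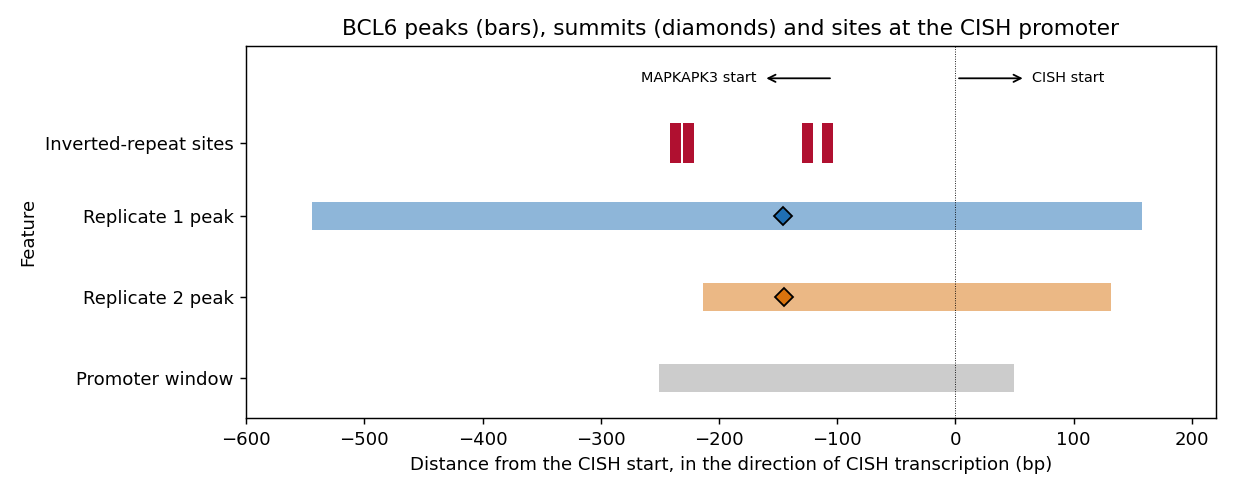
The CISH promoter drawn to scale, with distance from the CISH start in bp on the horizontal axis. Rows show the 4 TTCNNNGAA sites (red), the peaks of replicates 1 and 2 (bars) with their summits (diamonds), and the promoter window, and arrows mark the starts of MAPKAPK3 and CISH. Both summits, at 146 and 145 bp before the CISH start, lie next to the inner pair of sites.

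Across the 35116 promoter windows of the RefSeq table, 7.66% held at least 1 TTCNNNGAA and 4.45% at least 1 TTCCNNGAA on either strand. Windows with 4 copies of TTCNNNGAA were 7 of 35116, some of them overlapping each other. Of the 120 windows that held a shared BCL6 summit, 17 (14.2%) had at least 1 copy and 2 had 4, and these 2 were the windows of CISH and of BCL6 itself. BCL6 is named here after its value was seen. Windows were found for 8 of the 9 genes, 12 windows in all, and the other 11 windows held no TTCNNNGAA. Of these 11, only that of SOCS1 had bases under a peak (125, in replicate 1). The sequences of the shared regions at STAT4, STAT6 and SOCS1 were not searched. The windows therefore do not tell whether those regions hold the repeat. A match is a run of letters and not a measured binding site.

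The other shared region at CISH, chr3:50616196-50616971, lay 4743 bp before the gene inside MAPKAPK3, and 634 bp before a second start of that gene. Its fold enrichments were 4.35 and 2.79 in replicates 1 and 2, with pileups of 42 (30.3 to 56.8) and 24 (15.4 to 35.7). It was weaker in replicate 2 than the median shared region, with a −log10 q of 2.43 there against 11.2 in replicate 1. By the smaller fold enrichment it ranked 1008 of 1311.

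SOCS1 encodes an inhibitor that binds JAKs directly, and it is a recurrent target of mutation in B cell lymphomas. Its window held 3 shared regions, and 0.811% of protein-coding genes had at least that many. The region chr16:11224038-11225520 lay 30.0 kb beyond the 3′ end (30016 bp), with fold enrichments of 4.57 and 4.59 and pileups of 35 (24.4 to 48.7) and 24 (15.4 to 35.7). The other 2 lay on the opposite side, before the gene and inside the non-coding gene LOC105371082. Their nearest protein-coding gene was not SOCS1 but PRM1, a protamine gene, at 16651 bp for the narrower region and 16118 bp for the wider one. The region chr16:11297843-11298136, at 41.8 kb, was narrow, with fold enrichments of 4.66 and 5.35, pileups of 54 (40.6 to 70.5) and 44 (32.0 to 59.1) and −log10 q values of 15.99 and 15.02. Its neighbour chr16:11296437-11297583, at 41.2 kb, was weaker, with 2.74 and 3.35. These 3 ranked 193, 177 and 1029 of 1311 by the smaller fold enrichment.

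At the SOCS1 promoter itself a peak was called in replicate 1 only. It spanned chr16:11256330-11256729 with its summit 255 bp before the start, a fold enrichment of 3.33, a pileup of 35 (24.4 to 48.7) and a −log10 q of 5.95, and the nearest replicate 2 summit was 32.0 kb away. The promoter is shown as the counterpart of that of CISH, because a peak reached it but it holds no TTCNNNGAA. Unlike at CISH, the summit lay outside the window. The sequence at the summit and under the rest of the peak was not searched. The sequence is on the SOCS1 strand (minus strand, GRCh38.p14, chr16:11256155-11256454, from RefSeq), and capitals mark the 125 bases under the replicate 1 peak:
SOCS1 promoter: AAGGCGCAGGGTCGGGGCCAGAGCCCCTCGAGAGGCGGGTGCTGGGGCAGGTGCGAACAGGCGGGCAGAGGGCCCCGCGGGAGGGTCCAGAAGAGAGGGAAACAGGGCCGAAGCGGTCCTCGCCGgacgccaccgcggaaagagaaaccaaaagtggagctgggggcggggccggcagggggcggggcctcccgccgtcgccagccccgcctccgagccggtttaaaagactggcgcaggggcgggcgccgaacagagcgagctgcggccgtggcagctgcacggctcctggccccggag
Its GC content was 74%, against 70.3% for the CISH window and a median of 58.7% over all windows.

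**Figure D2:**
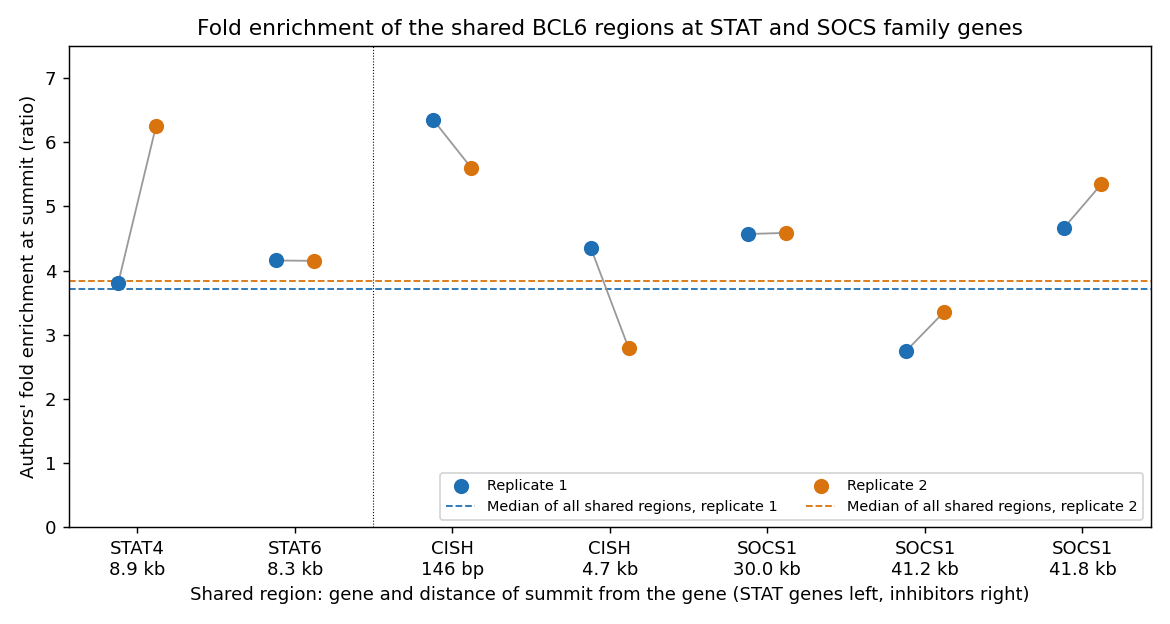
The authors' fold enrichment at the summit (ratio, vertical axis) of the 7 shared regions in replicate 1 (blue) and replicate 2 (orange), with the regions of the STAT genes left of the dotted line and those of the feedback inhibitors right of it. Dashed lines are the medians of all 1311 shared regions, 3.71 and 3.84. The start of CISH is the highest in replicate 1 at 6.35 and STAT4 the highest in replicate 2 at 6.25.

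**Figure D3:**
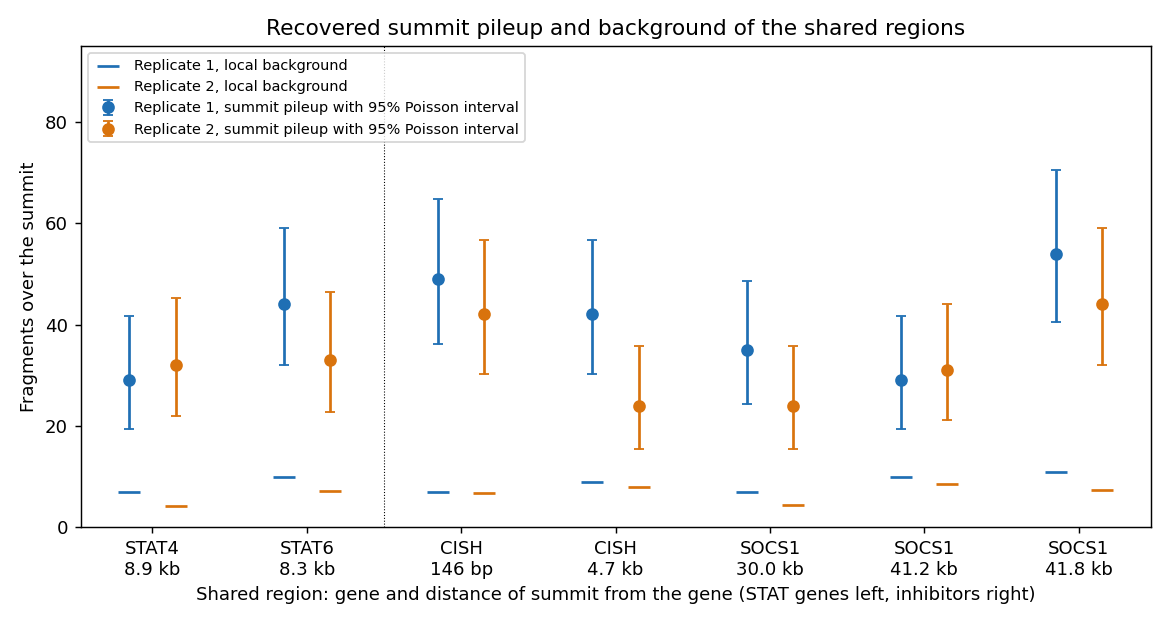
Fragments over the summit (circles, with exact 95% Poisson intervals that cover counting error only) and local background (dashes) for the same 7 regions in replicates 1 and 2. The intervals of the replicates overlap in every region, but read totals are unknown, so this does not measure agreement in enrichment. Each lower bound is above the background, which follows from the calling of these peaks against that background.

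SOCS2, an inhibitor of growth hormone signalling, had no peak within 50 kb. A shared region just outside that limit, chr12:93677083-93677851 at 50.9 kb, had fold enrichments of 4.83 and 2.51 and pileups of 19 and 22. The farthest region just inside the limit was the one 41.8 kb from SOCS1, given above. SOCS3, which inhibits receptors that signal through gp130, was 1144 kb from the nearest shared region. Between 50 and 100 kb, SOCS1 had 2 further shared regions, at 72.8 kb (3.19 and 4.70) and 99.0 kb (3.52 and 3.17).

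The STAT genes and the feedback inhibitors were then set side by side. The STAT windows, 627 kb when merged, held 5 replicate 1 peaks, of which 2 were in shared regions, and 7 replicate 2 peaks, of which 2 were. The inhibitor windows, 467 kb, held 6 replicate 1 peaks, of which 5 were in shared regions, and 6 replicate 2 peaks, of which 5 were. Over all peaks, 25.7% in replicate 1 and 38.4% in replicate 2 were in shared regions. Shared regions numbered 3.19 per Mb of STAT window and 10.7 per Mb of inhibitor window, against 0.643 per Mb over the merged windows of all protein-coding genes. The smaller of both fold enrichments was 3.81 and 4.15 at the STAT genes, within the range of 2.74 to 5.60 at the inhibitors. All 5 STAT genes had a replicate 1 peak in their window and 4 had a replicate 2 peak, where 29.5% and 23.3% of protein-coding genes had one. For STAT3, STAT5A and STAT5B the replicate 1 peak was the same weak one, so the 5 genes stand for 3 loci in that list. Of the inhibitors, 2 of 4 had a peak in each list. Starts of 8 of the 9 genes were in the promoter table. A shared summit lay within 1 kb of a start for 1 of these 8 (CISH), against 3.11% of protein-coding genes in the table. In replicate 1 this was so for 2 (CISH and SOCS1), against 9.59%, and in replicate 2 for 2 (STAT3 and CISH), against 7.3%. The shared inhibitor regions lay in the windows of CISH and SOCS1 alone, so this contrast rests on 2 loci and was not tested. Those at CISH lay inside MAPKAPK3, and 2 of those at SOCS1 were closer to PRM1. The STAT6 region lay inside NEMP1, and the STAT4 region was also closer to another protein-coding gene.

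Gene length differed between the families, from 15.96 to 122 kb for the STAT genes and from 1.79 to 56.3 kb for the inhibitors. Among protein-coding genes within 2-fold of its length, a shared region lay within 50 kb of 11.9% for STAT4, 9.496% for STAT6, 8.90% for CISH and 5.99% for SOCS1. At least 2 shared regions, as at CISH, were found at 2.22% of all protein-coding genes.

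**Figure D4:**
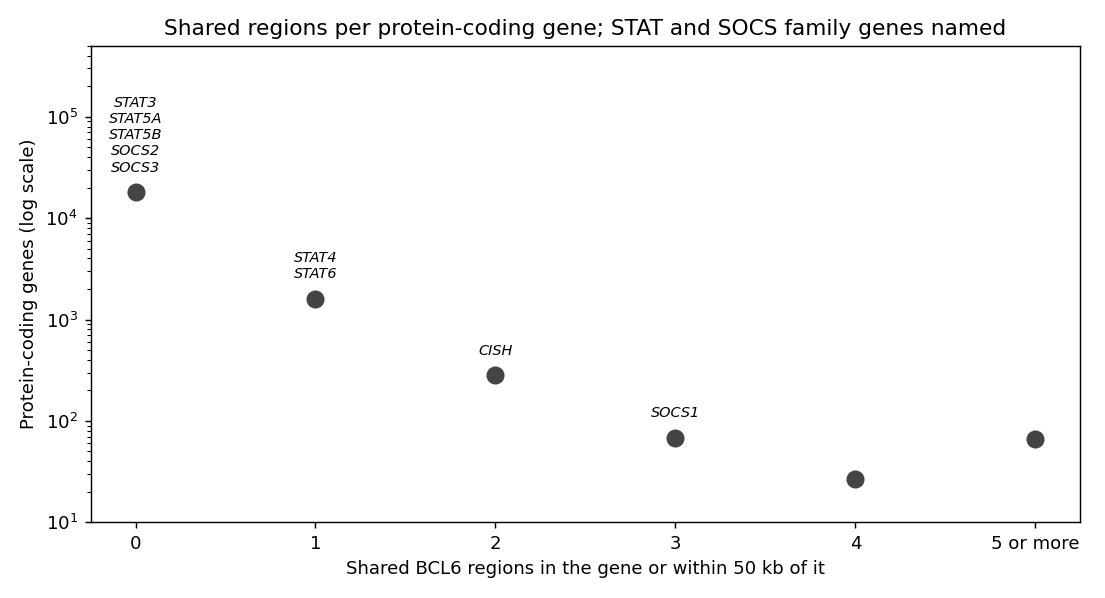
Number of protein-coding genes (log scale) by how many shared BCL6 regions lay in the gene or within 50 kb of it, with the STAT and SOCS family genes named above their point. Most genes, 17940 of 19970, had none, as did STAT3, STAT5A, STAT5B, SOCS2 and SOCS3, and SOCS1 stands with the 68 genes that had 3.

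Other genes of the pathway were read from a list of 50. A shared region lay within 50 kb of 8 of them (16%, against 10.2% of protein-coding genes), in 10 distinct regions. Among receptors 2 of 22 had one. IL10RA, the ligand-binding chain of the interleukin-10 receptor, had a region inside the gene with fold enrichments of 3.47 and 4.52 and the high pileups of 115 and 84. The region 32.1 kb from IL12RB2 (3.23 and 4.47) lay 383 bp from SERBP1. Of the kinases 1 of 4, JAK2, had one, 277 bp after its start, with 2.17 and 3.82. Its −log10 q in replicate 1 was 1.65, near the smallest in that list. Of the ligands 1 of 9, IL10, had one, 61 bp after its start, with 2.69 and 3.92.

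The region 25.8 kb from STAT2, an interferon signal transducer, lay in CNPY2 with 3.12 and 2.37. Its −log10 q in replicate 2 was 1.35, where the smallest in that list was 1.31. None of the 4 other SOCS genes (SOCS4, SOCS5, SOCS6 and SOCS7) had one. Of the other negative regulators 2 of 9 did. PTPRC, which encodes the phosphatase CD45, had 3, the strongest 39.6 kb away with 5.36 and 5.70. The region 2809 bp from PTPN6, which encodes the phosphatase SHP-1, lay in C12orf57 with 2.12 and 2.40. As at STAT6, several of these regions lay closer to another gene than to the listed one.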

How the data were processed

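BCL6 CUT&RUN peak lists of 2 SUDHL5 replicates were used, with groups and numbers from the sample titles. The submitters' processing notes name MACS2 with Bowtie2, cutadapt, Picard, SAMtools, bedtools, FastQC and deepTools, and the build hg38. No version, setting or peak-calling control is given in the sources used here. Each deposited peak carries the authors' fold enrichment (a ratio), the −log10 of its p-value and q-value, a score and a summit offset, in the layout of MACS2, called per sample. The deposited score was not used. Both lists ended at a −log10 q of 1.31, as a q-value threshold of 0.05 gives.

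Peaks sharing at least 1 bp were merged with Python 3.11.15, pandas 2.3.3 and SciPy 1.17.1. A region with peaks of both lists was called shared and took the summit with the higher −log10 q. Pileup and background were solved from fold enrichment = (pileup + 1) / (background + 1) and the Poisson p, within 0.001 for all 5230 and 3529 peaks. This and the counting steps were checked on simulated data. Intervals of pileups reflect counting error alone, because PCR duplicates can be among the fragments. Gene positions came from RefSeq GRCh38.p14, starts and strands from its promoter table (15811 protein-coding genes, SOCS2 not among them), and exons were not separated. The members and lists were chosen with earlier results of these data known, so counts are descriptions. All 9 members were named with every shared region, and of the pathway list up to 4 genes per role by the smaller fold enrichment. No test between groups was made. Of the pathway list, 1 gene the rule names is not reported here.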

Additional observations from a re-analysis of the deposited data

How the results depend on the processing

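Each count was recomputed under 10 alternatives. The number of the 9 genes with a shared region, 4 in the main analysis, was 2 when a −log10 q of 10 or more was required, 1 within 1 kb and 0 in gene bodies, and 6 to 7 with all peaks of a single replicate. For the STAT genes (2) it was 0, 0 and 0 under the same 3 alternatives and 4 to 5 in a single replicate, and for the feedback inhibitors (2) it was 1 with reciprocal overlap of at least 50%, 1 within 10 kb, 1 within 1 kb and 0 in gene bodies. The region at the start of CISH missed the reciprocal rule with an overlap of 49.1% of its wider peak.

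Distinct regions at the STAT genes (2) were 0 with −log10 q of at least 10, 0 within 1 kb, 0 in gene bodies and 5 to 7 in a single replicate. At the inhibitors (5) they were 2 with reciprocal overlap, 3 with −log10 q of at least 5, 2 with at least 10, 2 within 10 kb, 1 within 1 kb, 0 in gene bodies and 8 within 100 kb. With −log10 q of at least 10, CISH and SOCS1 were the members that had one.

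Pathway genes (8) were 4 with −log10 q of at least 5, 2 with at least 10, 3 within 1 kb, 3 in gene bodies and 18 to 22 in a single replicate. The share of all protein-coding genes (10.2%) was 4.49%, 2.39%, 4.47% and 3.28% under these, 5.78% within 10 kb and 23.3% to 29.5% in a single replicate. The other values were within 1.5 times the main count.

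No paired analysis was possible because the IgG samples were not analysed here and no group was tested against another. With 2 replicates, few fragments per summit and no IgG values, occupancy below the calling threshold was not detectable in these lists.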
